A study of Homo sapiens with 12 samples.

Results

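A set of 156 protein-coding genes had almost no reads in untreated or vehicle-treated HepG2 cells and were counted in every library after 24 h with 5 µM acriflavine. A gene belonged to the set if its counts summed to at most 3 over the 4 control libraries and to at least 40 over the 4 libraries at 5 µM. LGR5 and TF (transferrin) met both thresholds and were left out by definition, as were histone genes, none of which met them. The set is 156 of 19335 protein-coding genes and of 63152 genes counted in all. It is 2.52% of the 6190 protein-coding genes that had at most 3 control counts. Of those 6190 genes, 3566 (57.6%) had 0 counts at 5 µM as well. Control and 5 µM counts chose the members, so their difference is a description and was not tested. The 4 libraries at 2.5 µM took no part in the choice.

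Poly-A RNA of 12 cultures was sequenced on a NextSeq500 from strand-marked libraries made with 10 PCR cycles. The groups were 4 control cultures, 4 with 2.5 µM and 4 with 5 µM acriflavine (ACF), a mixture of acridine dyes that intercalate into DNA and are known inhibitors of HIF-1 dimerization. The drug was added with fresh medium at near confluence and the cells were collected after 24 h. One label gives the control treatment as none, while the protocol describes DMSO vehicle. HepG2 is a human hepatoblastoma line. A second label names all 12 samples HepG2S1, a derivative selected over months in rising sorafenib and therefore resistant to that kinase inhibitor, so every group shares this background. The design text calls the 4 libraries of a condition biological replicates. Defining liver markers were near 0 in these libraries: ALB, encoding albumin, had 0 counts in the controls, 0 at 2.5 µM and 2 at 5 µM, and AFP, encoding alpha-fetoprotein, had 0, 1 and 1. APOA1 had 9, 3 and 10 counts, and GPC3 had 0 in all 3 groups. Of a list of 30 secreted hepatocyte proteins, 20 had at most 3 control counts. These levels go against the HepG2 label, and the cells are called here by their label only. Library totals ranged from 10733567 to 15116842 counts.

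A gene that gives almost no poly-A RNA in a cell line is usually one that belongs to another lineage, developmental stage or signalling state, and is held off by compacted or methylated chromatin or by the lack of its activating factors. Intercalating dyes change DNA winding and can act on topoisomerases and on the binding of proteins to DNA. Genes read from such a low start are seen as single fragments, so their level is known only as well as a few reads allow.

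The promoters of the members were compared with those of other genes in the RefSeq table of GRCh38.p14, which gave a window from 250 bases before to 50 bases after the start for 125 of the 156 members. The median G+C content of these windows was 59.7%. It was 55.3% in the 4312 genes with a window that also had at most 3 control counts and stayed under 40 counts at 5 µM. These genes were not matched to the members in level. In the 9863 other protein-coding genes with enough counts for testing it was 65.7%. The ratio of observed to expected CpG had a median of 0.452 in members, 0.347 in the genes that stayed low and 0.845 in the tested genes, and it reached 0.6 in 39.2%, 33.3% and 83.9% of them. On both measures the members lay between the genes that stayed low and the expressed genes, nearer to the former.

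Short motifs were searched on both strands of the same windows, except for TATAAA, which was searched on the strand of the gene. TATAAA, the core of the TATA box, was in 17 of the 125 member windows (13.6%), in 13.2% of the genes that stayed low, in 3.59% of the tested genes and in 6.92% of all 15323 windows. TGANTCA, with any base in the middle, is a loose form of the site of AP-1 (FOS and JUN proteins) and also counts TGAATCA. It was in 17 member windows (13.6%), against 7.91% of those that stayed low and 5.73% of all. GGGCGG, the GC box, was in 45.6% of member windows, 35.5% of those that stayed low and 59.2% of all. The E-box CACGTG was in 8.8%, 6.10% and 8.88%. ACGTG, a core read by HIF, which is also contained in CACGTG, was in 24.8% of member windows, 17.7% of those that stayed low and 23.8% of all. GCGTG, a core read by the aryl hydrocarbon receptor and also by HIF, was in 36.8%, 30.2% and 44.3%. The p53 site, searched as the full consensus with no mismatch allowed, was found in 0 member windows and in 3 of all windows. A match is so rare that its absence from 125 windows says little. TGACGTCA, the full cyclic AMP response element, was in 3 member windows (CGA, CLDN6 and FLT1), which is 2.4%, against 1.21% of those that stayed low and 2.64% of all. These shares are descriptions of letters in a window, and no share was tested.

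The 250 bases before the start are printed for the 3 genes with the full cyclic AMP response element, of which CGA had the highest level of the set, and for 2 genes with both TATAAA and TGANTCA. MMP10 and PADI4 are shown out of 4 such genes, the others being FOXA3 and CLCA2. Capitals mark TGACGTCA, TGANTCA and TATAAA, and each line runs 5′ to 3′ in the direction of the gene.
CGA promoter, GRCh38.p14 chr6:87095107-87095356, minus strand: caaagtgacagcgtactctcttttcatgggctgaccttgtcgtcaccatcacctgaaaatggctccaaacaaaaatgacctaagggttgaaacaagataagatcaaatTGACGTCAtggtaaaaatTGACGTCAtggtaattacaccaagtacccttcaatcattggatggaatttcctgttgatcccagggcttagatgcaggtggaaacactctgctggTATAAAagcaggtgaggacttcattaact
CLDN6 promoter, GRCh38.p14 chr16:3018184-3018433, minus strand: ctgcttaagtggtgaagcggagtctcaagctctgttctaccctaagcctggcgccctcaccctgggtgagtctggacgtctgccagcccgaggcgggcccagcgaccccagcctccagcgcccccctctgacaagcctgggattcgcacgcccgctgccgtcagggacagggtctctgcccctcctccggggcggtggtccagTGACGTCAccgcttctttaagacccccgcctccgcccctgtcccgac
FLT1 promoter, GRCh38.p14 chr13:28495129-28495378, minus strand: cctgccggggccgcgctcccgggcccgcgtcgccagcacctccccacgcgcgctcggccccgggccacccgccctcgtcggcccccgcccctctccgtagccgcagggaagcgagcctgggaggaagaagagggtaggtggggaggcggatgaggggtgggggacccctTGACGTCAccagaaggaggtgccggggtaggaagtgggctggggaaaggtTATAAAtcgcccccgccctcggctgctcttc
MMP10 promoter, GRCh38.p14 chr11:102780629-102780878, minus strand: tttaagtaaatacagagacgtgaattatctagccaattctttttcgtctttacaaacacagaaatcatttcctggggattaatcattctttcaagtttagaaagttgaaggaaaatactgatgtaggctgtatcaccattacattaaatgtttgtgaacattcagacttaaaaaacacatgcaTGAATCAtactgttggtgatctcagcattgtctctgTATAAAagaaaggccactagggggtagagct
PADI4 promoter, GRCh38.p14 chr1:17307947-17308196, plus strand: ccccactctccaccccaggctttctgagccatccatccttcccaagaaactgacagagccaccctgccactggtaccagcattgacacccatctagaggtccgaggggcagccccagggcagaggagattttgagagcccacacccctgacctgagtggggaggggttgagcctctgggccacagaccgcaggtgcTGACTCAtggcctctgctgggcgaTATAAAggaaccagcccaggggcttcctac
CGA carried TGACGTCA as a tandem pair beginning 142 and 124 bases before the start, with TATAAA at 29 bases. CLDN6 carried it 47 bases and FLT1 81 bases before the start. TATAAA began 31 bases before the start in FLT1 and MMP10 and 30 bases before it in PADI4, and TGANTCA began at 67 bases in MMP10 and at 54 in PADI4. These 5 genes were far apart in level at 5 µM, where CGA had 749 counts, CLDN6 383, FLT1 62, PADI4 54 and MMP10 41. At 2.5 µM they were at 3.13%, 3.46%, 5.82%, 10.66% and 2.18% of their 5 µM level. Members with TATAAA had a median of 8.85% and those without it 11.7%.

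Summed over the 156 members, the control libraries held 55, 62, 39 and 54 counts, those at 2.5 µM held 426, 473, 443 and 487, and those at 5 µM held 2970, 2948, 4384 and 4723. As CPM, the counts divided by the TMM-scaled library total and given per 1000000, this was 4.22 ± 0.504 in controls, 33.1 ± 0.81 at 2.5 µM and 283 ± 30.7 at 5 µM (mean ± SD, n = 4 each). The 4 libraries at 2.5 µM differed by less than 2 CPM and lay above each control and below each library at 5 µM. In single libraries 33 to 54 members had a read in controls and 121 to 131 at 2.5 µM, and all 156 had one in each library at 5 µM. Since the choice of members fixed the control and the 5 µM end, the middle dose is the part of this order that it did not use. In bulk RNA, fewer cells with a transcript and less of it per cell cannot be told apart.

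**Figure D1:**
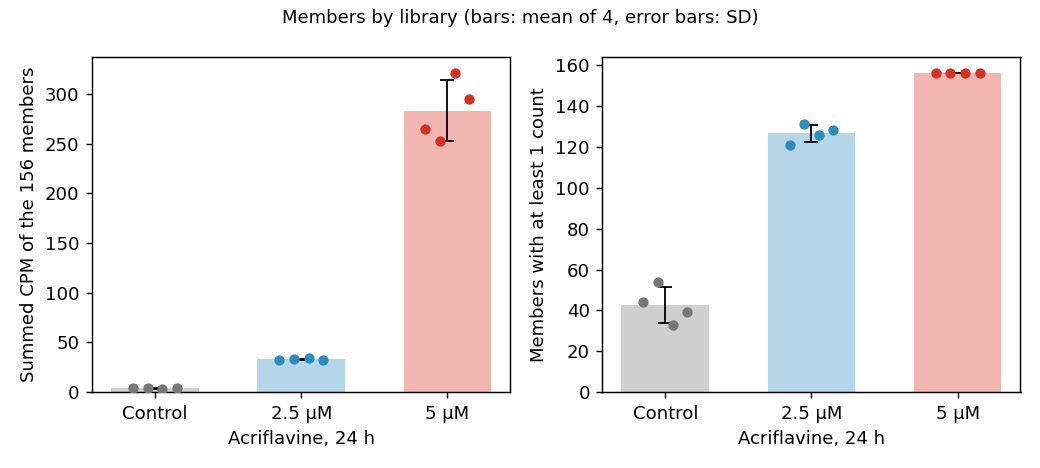
Summed level of the 156 members in CPM (left axis) and number of members with at least 1 count (right axis) for each library, by group. Points are libraries, bars the mean of 4 and error bars the SD; the 2.5 µM libraries lie between 32.2 and 34.1 CPM and the 5 µM libraries between 253 and 321 CPM.

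The levels at 5 µM remained low for nearly all of these genes. The mean CPM at 5 µM ran from 0.724 to 13.9 with a median of 1.32, and 53 members were under 1 CPM while 7 reached 5 CPM. The protein-coding genes with any count at 5 µM had a median of 17.7 CPM. Members varied between the 4 libraries at 5 µM with a median coefficient of variation of 25.2%. Replicate 3 was the highest library for 69 members and replicate 4 for 43, against 31 for replicate 1 and 13 for replicate 2, and the median member was at 0.931, 0.907, 1.105 and 1.033 times its group mean in replicates 1 to 4. Without replicate 3 or without replicate 4, 99 and 95 genes reached 40 counts. Divided by exon length, the levels at 5 µM had a median of 0.386 CPM per kb, and the highest were CGA at 6.10, CLDN6 at 4.23, KRTAP2-3 at 2.70, TMEM31 at 2.59 and PLEK at 2.09 CPM per kb.

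CGA, which encodes the alpha subunit shared by chorionic gonadotropin, luteinizing, follicle-stimulating and thyroid-stimulating hormone, was the highest member. It had 1, 0, 2 and 0 counts in the controls, 7, 7, 5 and 5 at 2.5 µM and 142, 115, 234 and 258 at 5 µM. The 3 groups did not overlap, and replicates 3 and 4 were the higher pair at 5 µM. Its level was 0.435 ± 0.0903 CPM at 2.5 µM and 13.9 ± 3.32 CPM at 5 µM (n = 4), so the lower dose reached 3.13% of the higher (exact 95% interval 1.94 to 4.56%). Its 5 µM level was 235 times the control level, with a counting interval of 80.1 to 1142 that reflects the 3 control counts. The hormones that contain this subunit need a separate beta subunit. FSHB, LHB and TSHB had 0 counts in all 12 libraries, as did CGB1, CGB3 and CGB5. CGB2 had 6, 1 and 0 counts in the 3 groups and CGB8 had 1, 0 and 1. CGB7, a chorionic gonadotropin beta gene and one of a set of near-identical copies, had 1, 7 and 37 counts in the 3 groups and so fell just under the threshold.

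TMEM229B, a transmembrane protein with little described function, had 2 counts in the controls, 5, 2, 4 and 4 at 2.5 µM and 81, 88, 139 and 118 at 5 µM. CLDN6, a tight-junction claudin of embryonic epithelia, had 3 control counts, 3, 4, 4 and 3 at 2.5 µM and 84, 90, 110 and 99 at 5 µM. PLEK, encoding pleckstrin, a protein kinase C substrate of platelets and leukocytes, had 1 control count, 5, 1, 4 and 6 at 2.5 µM and 74, 58, 114 and 126 at 5 µM. In each of these 3 genes the lowest library at 5 µM lay far above the highest at 2.5 µM. ZNF423, a zinc finger transcription factor, had 0 counts in all controls, 2, 2, 5 and 4 at 2.5 µM and 49, 68, 94 and 105 at 5 µM, at least 99.2-fold over a floor of 3 counts in the control group. TMEM229B, CLDN6, PLEK and ZNF423 were at 3.39%, 3.46%, 4.17% and 4.0% of their 5 µM level at 2.5 µM, like CGA. CLDN6 shares exon sequence with the neighbour TNFRSF12A on the other strand, which fell from 111 to 81.6 CPM between control and 5 µM.

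**Figure D2:**
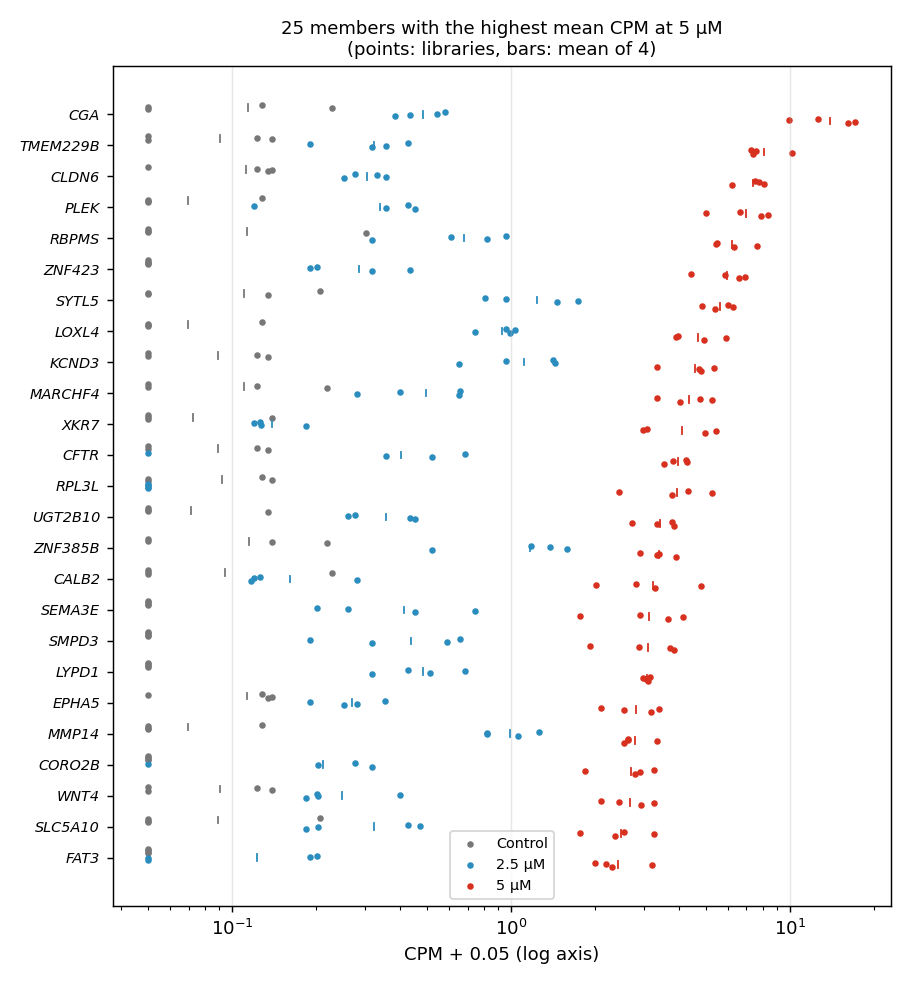
The 25 members with the highest mean level at 5 µM, with CPM + 0.05 on a log axis. Points are single libraries in grey (control), blue (2.5 µM) and red (5 µM) and ticks the mean of 4; CGA leads at 13.9 CPM, and its blue points lie near 0.435 CPM.

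At 2.5 µM the members were already above the genes that stayed low. A sum of at least 10 counts at 2.5 µM was found for 75 of 156 members (48.1%), against 57 of 6032 (0.945%) of the control-silent protein-coding genes that stayed under 40 counts at 5 µM. The 2 groups were split by their 5 µM counts, and the genes that stayed low had a median of 0 counts at 5 µM. This gap is therefore a description of the split and was not tested. Members had a median of 9 counts at 2.5 µM (range 0 to 66). A read in all 4 libraries at 2.5 µM was found for 88 members, 29 had at most 3 reads over the 4 libraries, and 6 had none (RPL3L, FOXJ1, ZIK1, KCNJ15, SLC25A47 and CXCL14). The level at 2.5 µM was a median of 11.2% of that at 5 µM (quartiles 5.81% and 18.8%, highest 40.04%), and 68 members were under 10%, 57 from 10% to under 20% and 31 at 20% or more. The exact interval of this ratio lay wholly under 50% for 143 of the 156. The 5 µM level in this ratio is one the choice of members required to be high and the control level one it required to be low, so the ratio is a description of the set and no test of how level follows dose.

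The values of the 2.5 µM libraries lay above each control value for 59 of 156 members; across the 16839 genes with enough counts for testing this held for 26.1%. The values at 5 µM lay above each value at 2.5 µM for 153 members, against 31% of all tested genes, and the exceptions were BST1, RASGRP3 and GPR35. The quasi-likelihood test of edgeR, fitted to all 12 libraries, covered 101 members. It called 57 of them higher and 0 lower at 2.5 µM than in the controls at an adjusted p under 0.05, while 30.7% of all tested genes were called higher. It called 101 higher at 5 µM than at 2.5 µM, against 33.6% of all tested genes. Both comparisons share libraries with the choice of members, and the members passed the filter on low counts through their 5 µM values, so these counts only describe the set. With the 8 control and 2.5 µM libraries alone, 1 member passed the filter and was called. For the contrast the choice used, 5 µM against control, the share of all tested genes called higher was 38.7%.

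**Figure D3:**
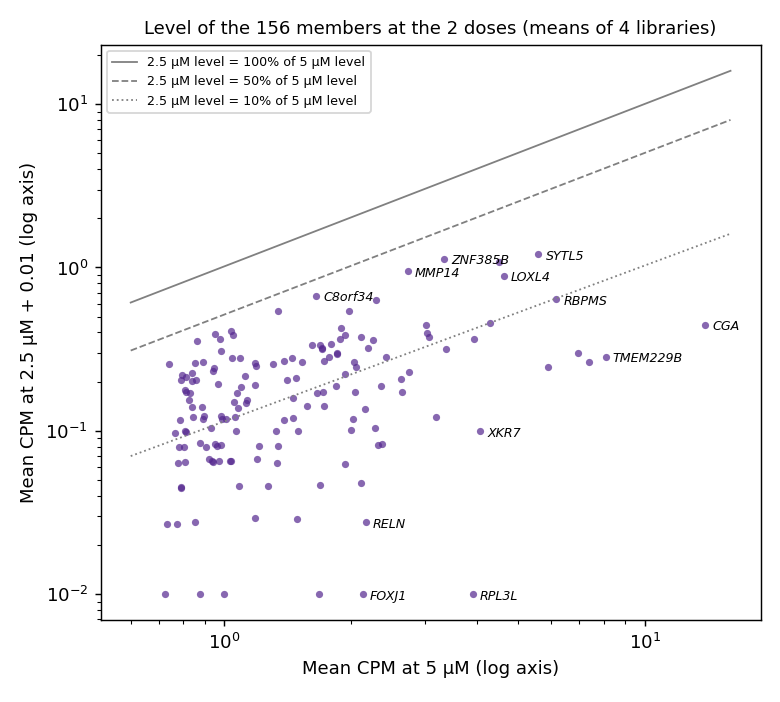
Mean CPM of each member at 5 µM (horizontal) and mean CPM + 0.01 at 2.5 µM (vertical), both on log axes, with lines where the 2.5 µM level is 100%, 50% and 10% of the 5 µM level. All 156 points lie under the 50% line, with a median of 11.2%, and the 6 points on the lower edge had 0 counts at 2.5 µM.

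The members with the highest level at the lower dose were led by SYTL5, KCND3, ZNF385B, MMP14 and LOXL4. Their controls were chosen to be near 0, so the differences from the controls are given as descriptions, without a test. SYTL5, a synaptotagmin-like Rab effector in vesicle traffic, had 3 control counts, 10, 13, 22 and 21 at 2.5 µM and 67, 56, 85 and 86 at 5 µM. MMP14, a membrane-bound metalloproteinase that cuts collagen and activates other proteases, had 1 control count, 16, 11, 10 and 15 at 2.5 µM and 29, 30, 45 and 40 at 5 µM. LOXL4, a lysyl oxidase that crosslinks collagen and elastin, had 1 control count, 12, 14, 9 and 14 at 2.5 µM and 44, 45, 80 and 78 at 5 µM. In these 3 genes the groups did not overlap, and each library at 2.5 µM lay above each control. Relative to the control, the 2.5 µM level was 19.7 times higher for SYTL5 (counting interval 6.44 to 97.8), 46.5 times for MMP14 (7.99 to 1872) and 43.8 times for LOXL4 (7.50 to 1766). The wide upper ends come from the 1 to 3 control counts.

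KCND3, the pore subunit of a transient potassium current, had 2 control counts, 18, 13, 18 and 9 at 2.5 µM and 37, 62, 64 and 76 at 5 µM, and was 25.9 times higher at 2.5 µM than in the controls (counting interval 6.86 to 219). ZNF385B, a zinc finger protein, had 3 control counts, 15, 19, 20 and 7 at 2.5 µM and 32, 39, 45 and 62 at 5 µM, and was 18.2 times higher (5.94 to 90.6). Neither gene had overlapping groups. C8orf34, ANGPTL6, EVX1, RBPMS and BST1 completed the 10 highest at 2.5 µM, with 0.663, 0.620, 0.531, 0.627 and 0.529 CPM. BST1, an ADP-ribosyl cyclase of the cell surface, had 6, 10, 2 and 12 counts at 2.5 µM and 6, 21, 27 and 17 at 5 µM, so these 2 groups overlapped.

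The same threshold of 40 counts was already reached at 2.5 µM by 7 protein-coding genes that were silent in the controls. SYTL5, ZNF385B, KCND3, MMP14 and LOXL4 are members, while COL20A1 had 53 counts at 2.5 µM and 35 at 5 µM, and STPG3 had 41 and 18. At the opposite end, RPL3L, a muscle-restricted paralogue of the ribosomal protein gene RPL3, had 2 control counts, 0 in each library at 2.5 µM and 48, 28, 71 and 60 at 5 µM, so that the lower dose held at most 1.71% of the higher. RPL3 itself fell from 723 ± 46.2 to 522 ± 11.1 CPM at 5 µM (n = 4, edgeR adjusted p = 7.82e-11). FOXJ1, the transcription factor that drives formation of motile cilia, had 0 counts in all 8 libraries of the controls and 2.5 µM and 22, 13, 44 and 36 at 5 µM. Its 5 µM level was 36.1 times the floor. RELN, encoding the secreted neuronal guidance protein reelin, had 0 in the controls, 0, 1, 0 and 0 at 2.5 µM and 20, 21, 33 and 43 at 5 µM. NEFH, a neurofilament subunit, and XKR7, an XK-related membrane protein, followed at 1.80% and 2.19% of the 5 µM level.

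Grouped by what the products do, the members fell into 12 classes, none of which held more than 20 genes. The classes were written by hand after the identities were seen, and their medians are descriptions. The level at 2.5 µM as a percent of that at 5 µM had class medians from 4.58% in junction, adhesion and cytoskeleton genes to 17.3% in testis and cilium genes, beside 11.2% over all members, and the ranges of all classes overlapped.

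**Figure D4:**
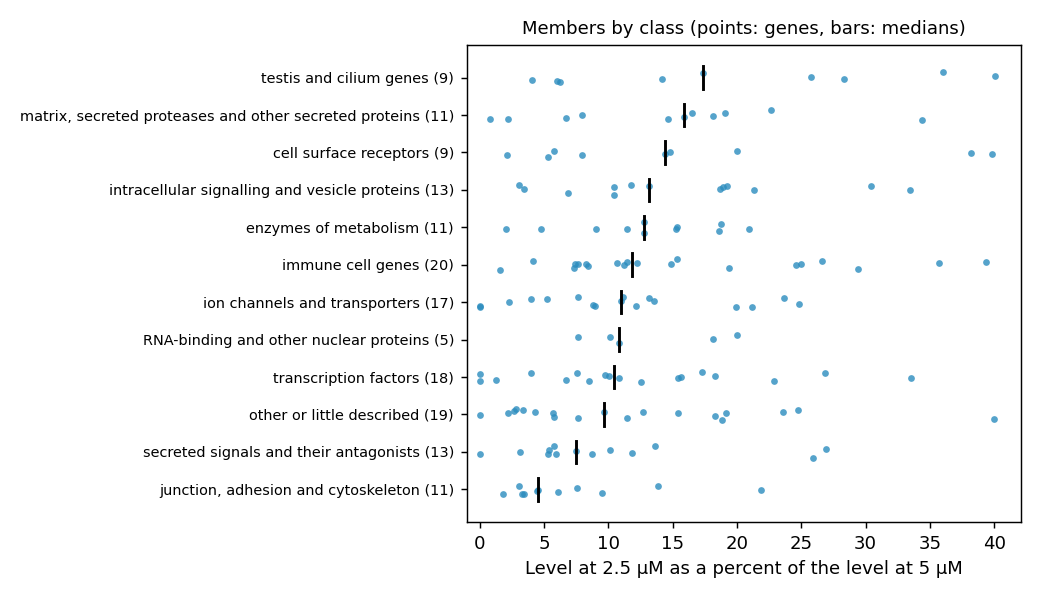
Level at 2.5 µM as a percent of the level at 5 µM for each member (points), by class with the number of genes in brackets; black bars are class medians. Medians run from 4.58% to 17.3%, and the points of every class overlap those of the others.

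Secreted signals and their antagonists were 13 members with a median of 7.50% at 2.5 µM. Beside CGA they were the semaphorins SEMA3E and SEMA3A, WNT4, WNT2, the activin and inhibin subunit INHBB, ANGPTL6, the interleukin-1 receptor antagonist IL1RN, IL17D, CXCL14, the tachykinin TAC3, the BMP antagonist CHRD and DKKL1. SEMA3E, which repels vessels and axons through plexin D1, had 0 control counts, 2, 3, 9 and 6 at 2.5 µM and 32, 20, 56 and 58 at 5 µM. Its receptor gene PLXND1 was lower with drug: its level was 261 ± 15.3 CPM without drug, 150 ± 6.55 with the lower and 130 ± 4.59 with the higher dose (n = 4, edgeR adjusted p = 1.01e-15 and 4.13e-19). SEMA3A, which signals through neuropilin 1, had 2 control counts, 8 at 2.5 µM and 11, 14, 21 and 34 at 5 µM, and NRP1 rose from 28.0 ± 1.51 to 40.9 ± 2.52 and 81.1 ± 3.47 CPM (edgeR adjusted p = 1.15e-08 and 4.38e-21). The 2 semaphorin genes are next to each other on the same strand of chromosome 7, and both were higher in each library at 5 µM than in any at 2.5 µM.

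WNT4 had 2 control counts, 2, 5, 2 and 2 at 2.5 µM and 23, 28, 44 and 46 at 5 µM, and WNT2 had 2, 3 and 49 counts in the 3 groups. Proteins that act below WNT ligands were also in the set: AXIN2, a feedback inhibitor of the pathway, had 0, 6 and 58 counts, TCF7, a transcription factor of the pathway, 1, 5 and 50, and DACT1, which binds Dishevelled, 2, 14 and 74. INHBB had 2 control counts, 1, 4, 1 and 1 at 2.5 µM and 20, 21, 42 and 32 at 5 µM. Its possible partners started from different levels: INHA, needed for inhibin, fell from 16.6 ± 2.16 to 10.3 ± 1.28 CPM at 5 µM (edgeR adjusted p = 5.58e-07), while INHBA rose from 0.241 ± 0.163 to 1.61 ± 0.297 CPM (adjusted p = 4.20e-07). IL1RN had 22, 18, 32 and 36 counts at 5 µM and 0, 0, 3 and 3 at 2.5 µM. CXCL14 was just inside the threshold, with 0 counts in 8 libraries and 4, 7, 12 and 17 at 5 µM.

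Matrix proteins, secreted proteases and other secreted proteins were 11 members with a median of 15.9%. They were LOXL4, MMP14, RELN, ITIH3, MUC7, SBSN, MGP, the hyaluronan-binding CEMIP, PSG6, the cobalamin carrier TCN2 and MMP10, a stromelysin. MMP14 and MMP10 differed in their course: MMP10 had 0, 0, 0 and 1 counts at 2.5 µM and 7, 10, 10 and 14 at 5 µM. MMP1, which lies in the same metalloproteinase cluster as MMP10, had 5 control counts and so was just outside the set, with 13 at 2.5 µM and 248 at 5 µM, and MMP3 had 1, 2 and 26. MMP2, a substrate of MMP14, had 2, 0 and 1 counts. ITIH3, a liver-secreted partner of hyaluronan, had 1 control count, 5, 4, 4 and 4 at 2.5 µM and 23, 18, 22 and 26 at 5 µM. PSG6 belongs to a family of near-identical genes, and its 44 counts at 5 µM are uncertain for that reason.

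Cell surface receptors were 9 members with a median of 14.4%. LYPD1, a GPI-anchored protein, had 0 control counts, 5, 9, 6 and 4 at 2.5 µM and 35, 34, 41 and 49 at 5 µM, with a small spread of 3.02 ± 0.0848 CPM at the higher dose. It shares exon sequence with GPR39 on the other strand, which was at 4.05 CPM in controls and 3.12 at 5 µM. The ephrin receptors EPHA5 and EPHB6 reached 2.75 ± 0.593 and 1.69 ± 0.547 CPM at 5 µM, at 7.96% and 2.16% of that at 2.5 µM. EDA2R, a TNF receptor family member for ectodysplasin, had 3 control counts, 3, 3, 5 and 3 at 2.5 µM and 14, 19, 28 and 32 at 5 µM. FLT1, the VEGF receptor 1 gene, had 0, 4 and 62 counts, and the serotonin receptor HTR7 had 3, 3 and 55. GRPR and GPR35, at 39.8% and 38.2%, were among the members nearest the upper end, and CHODL was at 20.0%.

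Junction, adhesion and cytoskeleton genes were 11 members with the lowest class median, 4.58%. With CLDN6 they were the actin-binding CORO2B and LMOD1, the cadherins FAT3 and CDH18, the catenin CTNNA3, the keratin-associated KRTAP2-3, KRT78, NEFH, TSPAN5 and TUBA4B. CORO2B had 0 control counts, 3, 0, 2 and 4 at 2.5 µM and 36, 21, 39 and 44 at 5 µM. FAT3 had 0, 4 and 126 counts, and CDH18 had 2, 5 and 109. NEFH had 1 control count, 1, 0, 1 and 0 at 2.5 µM and 27, 15, 32 and 39 at 5 µM. CLDN9, a second claudin that lies next to CLDN6, had 7, 45 and 140 counts and was outside the set through its control reads. KRTAP2-3 belongs to a cluster of close copies, and its 125 counts at 5 µM are uncertain for that reason. TUBA4B stood apart in its class at 21.9%, and it shares exon sequence on the other strand with the tubulin gene TUBA4A, which rose from 159 ± 17.2 to 365 ± 19.3 and 498 ± 7.09 CPM (edgeR adjusted p = 5.08e-18 and 2.59e-22). TUBA4B had 1, 23 and 102 counts against 7848, 20226 and 26150 of TUBA4A.

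Ion channels and transporters were 17 members with a median of 11.02%. CFTR, the epithelial chloride channel, had 2 control counts, 0, 9, 4 and 7 at 2.5 µM and 47, 44, 58 and 56 at 5 µM, or 3.92 ± 0.354 CPM. Potassium channel genes were KCND3, KCNAB1 and the inward rectifiers KCNJ15 and KCNJ16. KCNJ16 had 0 control counts, 0, 1, 1 and 2 at 2.5 µM and 13, 14, 25 and 19 at 5 µM, and KCNJ15 had 0, 0 and 54 over the groups. Glutamate receptor subunits were GRIK5 and GRIN2C, at 1.94 and 1.18 CPM. The calcium channel subunit CACNA2D1, the sodium channel subunit SCN4B, the sodium-calcium exchanger SLC8A1, FGF14, SHISA9 and CLCA2 lay between 0.782 and 1.48 CPM. Carriers included the sugar transporter SLC5A10, the dopamine transporter SLC6A3 and the mitochondrial SLC25A47. Of these 3, SLC5A10 was highest, at 2.43 ± 0.620 CPM.

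Enzymes of metabolism were 11 members with a median of 12.8%. UGT2B10, a liver glucuronosyltransferase, had 1 control count, 3, 3, 5 and 6 at 2.5 µM and 42, 31, 45 and 61 at 5 µM, and its relative UGT2B7 had 0, 1 and 46. UGT2B15 and UGT2A3, the neighbours of UGT2B10, had 2 counts each at 5 µM and 0 otherwise. Genes of this family are close copies, so the split of reads between them is uncertain. SMPD3, which makes ceramide from sphingomyelin, had 0 control counts, 8, 2, 7 and 4 at 2.5 µM and 21, 33, 50 and 61 at 5 µM. It shares exon sequence with PRMT7 on the other strand, at 50.3 CPM in controls and 31.2 at 5 µM. TYRP1, ALDH1A2, which makes retinoic acid, CAPN8, CKM, DPP4, GAL3ST4, PDE1C and FBP2 lay between 0.764 and 1.78 CPM. RARB, a retinoic acid receptor and transcription factor, was a member too, with 1 control count, 16 at 2.5 µM and 22, 21, 22 and 33 at 5 µM. It overlaps TOP2B, the target of some intercalating drugs, which lies on the other strand at 113 CPM in controls and 66.7 at 5 µM.

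Intracellular signalling and vesicle proteins were 13 members with a median of 13.2%. Beside SYTL5 they included the ubiquitin ligase MARCHF4, the calcium binder CALB2, FEZ1, RAB33A, RASGRF1, DLGAP1, NOXO1, APBA1, PHF24 and ARHGDIG. MARCHF4 had 3 control counts, 8, 5, 3 and 9 at 2.5 µM and 37, 55, 71 and 64 at 5 µM. CALB2 had 2 control counts, 1, 1, 3 and 1 at 2.5 µM and 31, 23, 65 and 52 at 5 µM, with replicates 3 and 4 above the other pair. RBPMS, one of 5 RNA-binding and other nuclear proteins (median 10.8%), had 12, 8, 10 and 4 counts at 2.5 µM and 61, 63, 104 and 100 at 5 µM. Its 3 control counts all lay in replicate 4. The others were NUTM1, NOVA2, RBM24 and BTG4, at 0.812 to 1.73 CPM.

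Transcription factors were 18 members with a median of 10.4%. They included forkhead genes (FOXJ1, FOXA3 and FOXR1), SOX5 and SOX30, the homeobox gene EVX1, PAX5, the zinc finger genes ZNF423, ZNF385B, ZIK1, ZBTB7C, KLF1, BNC1, OVOL1 and OVOL3, and NHLH2, TCF7 and RARB. SOX30 had 1 control count, 4, 6, 7 and 3 at 2.5 µM and 24, 21, 32 and 35 at 5 µM. EVX1 had 3 control counts, 6, 10, 3 and 11 at 2.5 µM and 23, 21, 30 and 30 at 5 µM, and SOX5 had 1, 16 and 100. ZBTB7C had 0, 1 and 80 counts, and FOXA3, a factor of liver lineage, had 1, 5 and 71. ZIK1 overlaps ZNF416 on the other strand, which was at 6.30 CPM in controls and 12.9 at 5 µM. The B-cell factor PAX5 had 3, 4 and 48 counts, and the red cell factor KLF1 had 1, 6 and 53.

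Genes best known from immune cells were 20 members with a median of 11.8%. PTPRC, encoding the pan-leukocyte phosphatase CD45, had 2 control counts, 4, 4, 7 and 4 at 2.5 µM and 27, 24, 33 and 35 at 5 µM. The others after PLEK included ALOX5, which starts leukotriene synthesis, IRAK3, ACOD1, which makes itaconate, BCL2A1, the kinase BTK, PADI4, MZB1, CD52, CR2, KLRD1, FCER1G and MEFV. IRAK3, an inhibitor of Toll-like receptor signalling, had 7, 4, 2 and 8 counts at 2.5 µM and 22, 23, 25 and 32 at 5 µM, and BCL2A1, an anti-apoptotic BCL2 relative, had 0, 1 and 62 over the groups. Of a list of 30 blood cell genes, PTPRC, FCER1G and PLEK were members. The libraries of the controls summed to between 2.50 and 3.82 CPM over that list, those of the lower dose to between 3.02 and 7.77 CPM, and those of the higher dose to between 14.3 and 19.4 CPM. Within it 6 genes, CD3E, CD4, CD8A, TYROBP, NKG7 and CD48, had 0 counts in all 12 libraries, SPI1 had 1, 1 and 2, and CD53 had 1, 2 and 5. Outside the set through their control reads, ITGAM had 6, 4 and 99 counts in the 3 groups, LAPTM5 11, 19 and 101 and CD14 25, 40 and 82. Other genes of the list fell: CSF1R had 34, 10 and 4 counts, ITGAX 16, 3 and 1 and LCP1 7, 6 and 2, and none of these was tested. LYZ had 8, 52 and 10. All 5 tested genes of the list were called higher at 5 µM than in the controls by edgeR, beside 38.7% of all genes tested. Their median log2 difference was 3.85. PTPRC and PLEK were among them, as members chosen on this contrast that passed the filter on low counts through their 5 µM values. These calls therefore only describe the list.

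Testis and cilium genes were 9 members with a median of 17.3%: KLHL10, RFPL4B, PXT1, SPATA32, TEX46, CABCOCO1, CFAP144, DNAH10 and CFAP99. RFPL4B had 2 control counts, 3, 4, 7 and 3 at 2.5 µM and 30, 21, 31 and 33 at 5 µM. The dynein heavy chain gene DNAH10 had 5, 5, 5 and 4 counts at 2.5 µM and 8, 8, 17 and 13 at 5 µM, which put it at 40.04%, the highest percent of the set. FOXJ1, which controls many cilium genes, had no count at that dose. A further 19 members were little described or belonged to no class, among them TMEM229B, XKR7, RPL3L, TMEM71, TMEM31, VWA5B2, TM4SF20, C8orf34 and EBLN1, with a median of 9.70%.

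Of 17 gene lists of lineages and pathways, chosen with earlier results of these data known, none held more than 3 members. Over all protein-coding genes 2.52% of the control-silent genes became members. Most lists lay above this share, each through 1 to 3 members. The G protein-coupled receptor list lay below it, and the germline, aryl hydrocarbon receptor and imprinted lists held no member. Of the silent genes on each list, members were 3 of 17 for blood cells, 1 of 12 for endothelium (FLT1), 1 of 7 for fibroblasts (RELN), 1 of 3 for cholangiocytes (CFTR) and 1 of 20 for hepatocyte secreted proteins (ITIH3). They were 1 of 26 for neurons (NEFH), 1 of 23 for muscle (CKM) and 0 of 28 for germline and cancer-testis genes. For signals and regulators they were 2 of 31 hormones and growth factors (CGA and INHBB), 1 of 24 cytokines and chemokines (CXCL14), 3 of 44 homeobox and developmental factors (PAX5, SOX5 and ZNF423), 3 of 41 ion channels (KCND3, KCNJ15 and KCNJ16), 1 of 56 G protein-coupled receptors (HTR7) and 2 of 27 zinc finger genes (ZNF423 and ZNF385B). No silent gene out of 11 on the aryl hydrocarbon receptor and xenobiotic list or out of 12 imprinted genes was a member. Of 41 p53 target genes, which the tumour suppressor p53 activates after DNA damage, 3 were silent in the controls and 2 of these, EDA2R and PADI4, were members. Across that whole list 36 genes were tested, and edgeR called 28 higher and 4 lower at 5 µM than in the controls. Over all 16839 genes tested, 38.7% were called higher and 6641 genes lower. The median log2 difference of the list was 0.79 beside -0.01 over all genes tested. EDA2R and PADI4 were chosen on this contrast, so these calls only describe the list.

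The markers of other cell types did not move as one. Over the 18 genes of the endothelial list the control libraries summed to between 21.6 and 25.5 CPM. Those of the lower dose summed to between 17.6 and 19.6 CPM, and those of the higher dose to between 25.6 and 26.9 CPM. EGFL7 and ESAM held the most control counts of the list and had fewer at 5 µM. EGFL7 had 652, 668 and 568 counts in the 3 groups and ESAM 396, 258 and 210. PECAM1 had 0 counts in all 12 libraries, and CDH5 had 1 in controls and 0 at either dose, while FLT1 had 0, 4 and 62. TEK, the angiopoietin receptor, had 8, 32 and 332 counts and VWF, the von Willebrand factor gene, 7, 15 and 84, and both were outside the set through their control reads. Of 6 endothelial genes tested, edgeR called 3 higher and 2 lower at 5 µM than in the controls. Over all 16839 genes tested, 38.7% were called higher and 6641 genes lower. The median log2 difference of the 6 endothelial genes was 1.57. FLT1, one of the 6, was chosen on this contrast and passed the filter on low counts through its 5 µM values. These calls therefore only describe the list. The fibroblast list lay at 655 to 808 CPM in controls and 720 to 775 at 5 µM, and the cholangiocyte list at 4181 to 4659 and 2076 to 2436 CPM. The part of any other cell type in the members' levels was not tested.

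The members were scattered over the genome. They lay on 23 chromosomes, with 13 each on chromosomes 1, 2 and 19, and 2 pairs were direct neighbours among protein-coding genes: SEMA3E with SEMA3A, and TMEM26 with CABCOCO1 on opposite strands. The remaining neighbours were 299 protein-coding genes outside the set. Of 204 with enough counts, edgeR called 84 (41.2%) higher and 85 lower at 5 µM than in the controls. Over all 16839 genes tested, 38.7% were called higher and 6641 genes lower. The median log2 difference of the neighbours was -0.02 beside -0.01 over all genes tested. One stretch of chromosome 7, picked after its values were seen, differed from this: WNT2, ASZ1, CFTR and CTTNBP2 follow each other, and ASZ1 had 15, 100 and 354 counts and CTTNBP2, which shares exon sequence with CFTR on the other strand, 4, 8 and 94 in the 3 groups.

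Exons of 63 members overlapped an exon of another gene, and for 29 of them the other gene was the higher one at 5 µM. In 28 cases its control level was above the level of the member at 5 µM, as with ARHGAP9, which overlaps MARS1 (339 CPM in controls), TCF7 with SKP1 (216 CPM), PXT1 with KCTD20 (212 CPM) and TCN2 with PES1 (116 CPM). BST1, GPR35, TAC3, CFAP99 and ARHGDIG overlap a gene of higher 5 µM level on the same strand. The strand setting of the counting is not given in the sources used here, so reads of the 2 genes of such a pair cannot be told apart. CGA, TMEM229B, PLEK, ZNF423, SYTL5, MMP14, KCND3 and RPL3L had no exon overlap with another gene.

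The thresholds cut through a continuous range. Just inside, ARHGDIG, CXCL14 and MEFV had 40 counts at 5 µM and APBA1 had 41, and 26 members had 40 to 45. Just outside, 29 control-silent genes had 35 to 39 counts, among them CDC20B, FMN2, IGFALS, NETO1 and THPO with 39. On the control side 27 members had 3 counts, 48 had 2, 33 had 1 and 48 had 0, while 66 genes with 4 or 5 control counts also reached 40 at 5 µM. The highest of those were TRIM22 with 5, 114 and 704 counts in the 3 groups, MIP with 4, 16 and 265, PTCHD4 with 5, 39 and 251, MMP1 with 5, 13 and 248 and SLC6A19 with 4, 37 and 233. The opposite rule, at least 40 counts in the controls and at most 3 at 5 µM, gave 4 genes: FLRT1 with 67, 19 and 3 counts, LAD1 with 82, 10 and 3, LRRC26 with 41, 7 and 1 and PCDHGA10 with 62, 5 and 3.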

How the data were processed

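The authors deposited a table of raw counts, whole reads for each Ensembl gene in each of 12 libraries. Per the submitters' processing notes, which give names without roles, the build was GRCh37 and the tools were STAR 2.4.1d, Bowtie2 2.2.4, cutadapt 1.7.1, featureCounts 1.4.6, SAMtools 1.1, edgeR 3.8.6, bedtools 2.17.0 and Cufflinks 2.1.1. The strand setting and the use of reads with several positions were not given in the sources used here.

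Gene class, exon length, neighbours and overlaps came from GENCODE 29 (GRCh38), matched by identifier for 51989 genes, and promoters from RefSeq (GRCh38.p14), 1 window a gene. The members, classes and 17 gene lists were chosen with earlier results of these data known. Named genes were the 25 highest members at 5 µM, the 10 highest at 2.5 µM, the 5 lowest and 5 highest in the ratio of the doses among members with at least 100 counts at 5 µM, those at the thresholds and those on a list; other members are named as part of their class, and non-members as relatives or neighbours.

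Tests used edgeR 4.0.16 in R 4.3.3 (filterByExpr, TMM, glmQLFit robust, glmQLFTest, 3 groups in 1 fit of 12 libraries, 9 residual degrees of freedom), with Benjamini-Hochberg adjustment over 16839 genes and a threshold of 0.05; the script was tested on simulated data. CPM values use TMM-scaled totals. Ratios of counts carry exact 95% intervals, and a group with 0 counts has a floor of 3 counts; both cover counting error only, since the libraries carry no molecular identifiers. Where cultures were not independent, p-values measure only the spread between these libraries. Alternatives were other scalings, filters, thresholds and DESeq2 1.42.0, and leaving out each library. Not every member counted in the set is reported by name here.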

Additional observations from a re-analysis of the deposited data

Results flagged for a closer look

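In groups of 4 libraries with at least 10 counts of a named gene, 10 of 81 had 1 library far from the other 3. The cutoff used flags about 1 in 20 for continuous, normally distributed values. Small counts with ties, such as 2, 5, 2 and 2 for WNT4 at 2.5 µM, do not follow that rate. Whether 10 of 81 is more than counting error gives was not tested. Replicate 3 was the high library at 2.5 µM for ANGPTL6 (0.923 CPM, the others 0.492 to 0.537), EDA2R (0.385, others 0.201 to 0.227) and PTPRC (0.539, others 0.268 to 0.302), and replicate 2 for WNT4 (0.351, others 0.134 to 0.154). At 5 µM replicate 3 was high for INHBB (3.07 CPM, others 1.78 to 2.00), KCNJ16 (1.83, others 1.157 to 1.201), MMP14 (3.29, others 2.50 to 2.58) and TMEM229B (10.2, others 7.21 to 7.55). Replicate 1 was high for ITIH3 (2.05 CPM, others 1.54 to 1.62), and replicate 2 was low for NEFH (1.29 CPM, others 2.34 to 2.43). None of these libraries brought its group to overlap with a neighbouring dose for INHBB, MMP14, TMEM229B, KCNJ16, ITIH3 or NEFH.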

How the results depend on the processing

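The number of members follows its thresholds: 48 genes with 0 control counts, 247 with at most 6, 331 with at least 20 counts at 5 µM and 67 with at least 80, and 95 to 206 when single libraries were left out. With 5 or 40 counts in place of 10 at 2.5 µM, 116 and 5 members passed, and 52 to 61 passed without a single library. The count called higher at 2.5 µM was 57 to 70 under other scalings, no filter and DESeq2, and 59 to 71 without single libraries. With only the 8 libraries compared it was 1 (MMP14), because fewer members passed the filter. At 5 µM against 2.5 µM, 156 members were called without a filter and with DESeq2, and 104 to 140 without single libraries, as the filter then admits more members. The median percent at 2.5 µM was 10.5 with library totals alone, 10.9 with RLE scaling, 10.8 with upper quartile scaling and 10.8 to 12.1 without single libraries. Replicate numbers did not pair the libraries: same-numbered libraries correlated at -0.274 to 0.185, and 1 of 12 correlated best with its own number. With a replicate block 56 members were called higher at 2.5 µM, and 101 at 5 µM against 2.5 µM. Depth limits the single genes, since 1 count is the difference between many neighbours in order.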

Other observations

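The same 2 thresholds were passed by genes of other classes in GENCODE 29: 55 antisense genes, 43 lincRNA genes, 5 transcribed unprocessed pseudogenes and 10 genes without a class in that release. LGR5, left out of the set, had 0, 32 and 346 counts in the controls, at 2.5 µM and at 5 µM, and TF had 0, 8 and 284.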
